A study of Mus musculus with 16 samples.

Results

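Naive mouse embryonic stem (ES) cells were sampled at the start of their exit from 2i/LIF medium and 12 h later, with 2 RNA libraries per time. These 4 libraries, out of 16 in the series, were chosen by their sample titles alone, and no measured value entered the choice. At 0 h the cells were in serum-free 2i/LIF medium, an equal mix of DMEM/F-12 and Neurobasal with defined supplements and 2 mM glutamine, which held leukaemia inhibitory factor (LIF) and 2i. The name 2i stands for a pair of kinase inhibitors, 3 uM CHIR99021 against GSK3 and 1 uM PD0325901 against MEK. At 12 h the cells had been rinsed with PBS and kept in the same base medium with neither 2i nor LIF. CHIR99021, PD0325901 and LIF were thus removed together. The part of each in the changes, and that of 12 h more culture, cannot be told apart. All cells had first been moved from serum and LIF into their medium for 3 passages, had been used for no more than 9 passages, and had been seeded at least 24 h before exit. A second pair of groups, used here for comparison only, came from medium with 10% serum, LIF and 2i at 0 h and 12 h, and was moved into a base prepared from DMEM lacking glutamine, to which 2 mM of it was added. The cell line is not named in the labels, and no genetic change or transgene is given for any group. The labels do not say that the 2 libraries of a group came from separate cultures, so p-values measure the spread between these libraries, which may be technical.

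As background, naive ES cells resemble the epiblast of the mouse blastocyst before implantation. CHIR99021 keeps beta-catenin stable and so holds Wnt target genes on, PD0325901 blocks ERK, the kinase through which fibroblast growth factor (FGF) drives cells out of the naive state, and LIF acts through its receptor and JAK kinases on the transcription factor STAT3. When all are removed, naive cells pass through a formative state, in which the naive factors are lost, the de novo DNA methyltransferases are made and the cells become able to respond to signals for the germ layers and the germline.

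RNA was measured as polyA-selected libraries and deposited as counts per gene. The 4 libraries held 5931381 and 6781483 counts at 0 h and 7418253 and 7579351 at 12 h, with 16393 to 16874 genes detected. Levels are given as CPM, counts scaled to library size with TMM factors (trimmed mean of M values), and 3 counts correspond to 0.401 to 0.517 CPM. Where all libraries of a group had at most 3 counts, the gene is taken as at the floor there. Its fold is then stated as a minimum, computed against 3 counts in each library. This floor is a fixed convention and takes no account of the spread between libraries. Values marked SE or SD do include that spread, which may be technical. Replicates correlated with r = 0.9905 at 0 h and 0.9916 at 12 h across genes, and their counts differed by more than sampling noise. The cells carried ES cell transcripts throughout: the summed level of 8 ES cell markers was 3800 and 3961 CPM at 0 h and 4651 and 4683 CPM at 12 h.

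Of 14288 genes tested, 6382 (44.7%) passed edgeR's quasi-likelihood test at an adjusted p under 0.05, the threshold for the words rose and fell throughout. Of these, 2999 rose (21.0% of genes tested) and 3383 fell (23.7%). The change was mostly small, with a median absolute log2 fold change of 0.54 among the called genes, and the median over all genes was -0.00. These values over all genes are the background for the counts given for each gene list. By at least log2 1, 800 genes rose and 955 fell, and by at least log2 3, 161 rose and 153 fell. The levels of the 2 libraries at 0 h did not overlap those at 12 h for 10063 of the genes tested (70.4%). Of the 6382 called genes 6365 had no overlap, so a lack of overlap adds little to a call. This holds wherever it is noted below, and the largest rises and falls were chosen for it. As these are bulk samples, fewer cells expressing a gene and less RNA of it per cell cannot be told apart for any of these changes.

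**Figure D1:**
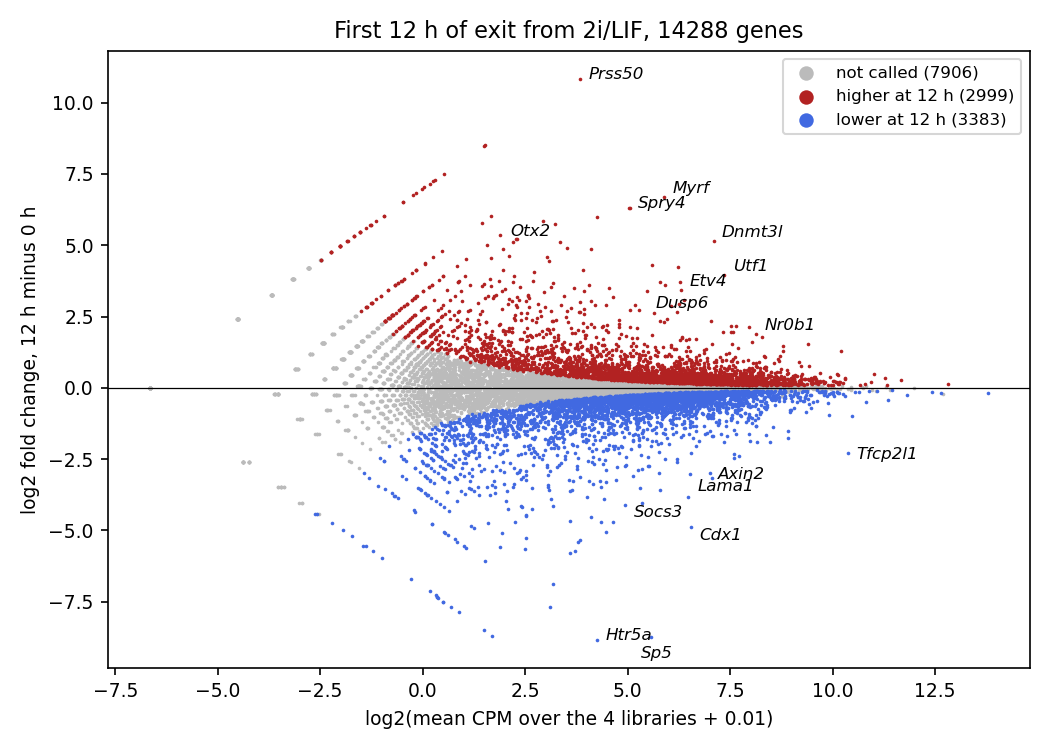
Log2 fold change at 12 h against 0 h in cells from 2i/LIF (vertical axis) plotted against the mean level over the 4 libraries (log2 of CPM + 0.01, horizontal axis) for the 14288 genes tested; each point is a gene, red where it rose (2999), blue where it fell (3383) and grey where it was not called. The Wnt target Sp5 lies near the bottom and the protease Prss50 at the top, and many points of small change at high level are coloured.

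Among called genes of at least 5 CPM on average and with no overlap between the groups, the 10 largest rises by fitted value were Prss50, Myrf, Spry4, Zfp423, Eras, Soga3, Plxna4, Dnmt3l, Otx2 and Itga9. Prss50, a serine protease gene best known from testis (chr9:110857964-110864629, GRCm38.p6), had 0 and 0 CPM at 0 h and 32.3 and 25.1 CPM at 12 h. It rose at least 59.1-fold, with an adjusted p of 3.6e-40. Myrf, a membrane-bound transcription factor known from myelination (chr19:10208271-10240777), was at 1.03 and 1.22 CPM at 0 h and 116 and 120 CPM at 12 h, a 103-fold rise. Zfp423, a zinc finger transcription factor (chr8:87661810-87962053), was at 0.862 and 0.759 CPM at 0 h and 61.8 and 67.6 CPM at 12 h. For both genes a lack of overlap was part of the rule that named them. Eras, a Ras family gene of ES cells that is active without growth factor input, rose from 0.573 ± 0.165 to 37.3 ± 0.557 CPM (SD, n = 2), but overlaps Pcsk1n in the annotation. Plxna4, a semaphorin receptor, was at least 37.6-fold higher and Soga3 at least 30.8-fold. Soga3 and Plxna4 also overlap other annotated genes, and no source says whether counting used the strand, so reads of overlapping genes cannot be told apart. The same limit holds for every gene described later that overlaps another annotated gene. Among these are Dnmt3a, Tcf7, Tcf7l1, Gsk3b, Bmp4, Ccnd2, Slc7a3, Slc7a7, Ly6g6e, Lss, Ctsa, Ctsb, Pfkp, Hk1 and Mest. Others are Pax6, Sox1, Sox2, Rnf43, Wnt3, Id4, Elk3, Elk4, Ncam1 and Col4a1.

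The 10 largest falls by the same rule were Htr5a, Sp5, Cnga4, S1pr1, Ly6g6e, Exph5, Cdx2, Srarp, T and Csf3r. Htr5a, a serotonin receptor gene (chr5:27841716-27855086), was at 41.4 and 35.2 CPM at 0 h and 0 and 0.134 CPM at 12 h and was at least 94.4-fold lower. S1pr1, a receptor for sphingosine 1-phosphate (chr3:115710433-115715055), was at 18.6 and 17.3 CPM at 0 h and 0.274 and 0 CPM at 12 h, at least 44.3-fold lower. Cnga4, a cyclic nucleotide-gated channel subunit that overlaps Fam160a2, was at least 42.5-fold lower. Csf3r, the receptor of the cytokine G-CSF, was at 11.7 and 10.5 CPM at 0 h and 0 and 0.535 CPM at 12 h. For all 4 genes the 12 h libraries held at most 0.535 CPM, close to the level of 3 counts. Per kilobase of gene length, on the CPM scale, the 5 largest losses were in COX1, ND1, Eef1a1, Ckb and Rplp1, and the 5 largest gains were in Utf1, Hsp90ab1, L1td1, Dppa5a and G3bp2. Most of these were small relative changes in abundant transcripts: Eef1a1, a translation elongation factor, fell by 0.19 on the log2 scale (0.12 to 0.26 without single libraries) and Hsp90ab1, a chaperone, rose by 0.12. Ckb, the brain-type creatine kinase, was at 725 and 766 CPM at 0 h and 218 and 221 CPM at 12 h, and G3bp2, a stress granule protein, at 680 and 673 CPM at 0 h and 1678 and 1653 CPM at 12 h. Those 2 genes changed 3.40-fold downward and 2.46-fold upward. Utf1 and L1td1, described below, also changed more, rising 15.5-fold and 2.89-fold.

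Targets of Wnt signalling fell as a group. Of 17 listed targets 16 were tested, 13 fell and 0 rose, beside 23.7% and 21.0% of all genes, and their median log2 fold change was -1.58 ± 0.16 (SD over the choices of 1 library per group) beside -0.00 over all genes. Sp5, a transcription factor that is among the most direct Wnt targets in ES cells (chr2:70474923-70477726), was at 92.4 and 96.6 CPM at 0 h and 0.411 and 0 CPM at 12 h. The 12 h libraries held 0 to 3 counts, and the gene was at least 233-fold lower (adjusted p = 1.3e-59). Axin2, the negative feedback scaffold of the pathway, was at 227 and 229 CPM at 0 h and 29.1 and 28.6 CPM at 12 h. It fell by 2.98 on the log2 scale (adjusted p = 2.8e-69). Cdx1, a caudal homeobox factor, was at 183 and 178 CPM at 0 h and 6.30 and 5.75 CPM at 12 h, and T, which encodes brachyury, at 30.0 and 26.0 CPM at 0 h and 0.548 and 0.802 CPM at 12 h. In each of these genes the groups lay far apart. The caudal factor Cdx2 was at least 27.3-fold lower, the receptor-degrading ligase gene Rnf43 at least 17.7-fold and the secreted inhibitor Dkk1 at least 11.4-fold. Members changed to unequal degrees: Tcf7, a nuclear partner of beta-catenin, fell by 1.22, its relative Lef1 by 0.80 and the ligase gene Znrf3 by 0.68 on the log2 scale. Notum, which encodes a secreted Wnt deacylase, moved little: it was at 173 and 162 CPM at 0 h and 150 and 142 CPM at 12 h, a fall of 0.20 on the log2 scale that was lost without replicate 1 of 0 h or replicate 2 of 12 h (adjusted p = 0.061 in edgeR's test for each). Not called were Apcdd1, Sp8 and Zcchc12, the last at the floor at 0 h.

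The promoter of Sp5 is shown because it was the most strongly called Wnt target, by adjusted p, whose promoter holds the TCF/LEF letters CTTTGA, besides being among the largest falls. It comes from the RefSeq table of GRCm38.p6, covers 250 bases before to 50 bases after the gene start (chr2:70474673-70474972, plus strand) and runs 5′ to 3′ with the matches in capitals, the first starting 204 and the second 104 bases before the start.
Sp5: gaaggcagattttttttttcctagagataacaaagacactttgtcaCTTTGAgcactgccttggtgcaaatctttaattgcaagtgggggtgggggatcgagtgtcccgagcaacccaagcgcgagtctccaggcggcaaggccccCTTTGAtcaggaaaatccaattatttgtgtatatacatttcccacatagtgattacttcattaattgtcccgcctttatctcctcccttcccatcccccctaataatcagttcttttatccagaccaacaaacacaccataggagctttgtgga
CTTTGA was searched on both strands. It was found in 6 of the 12 Wnt targets with a promoter in the table (50%), beside 14.1% of 10940 tested genes and 16% of all 32851 promoters. The other matches were in Dkk1, Lef1, Sp8, T and Tnfrsf19. A match is a description of letters and not evidence of binding.

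The receptors and the machinery of the Wnt pathway changed in both directions, 3 of 15 up and 7 down, 66.7% called beside 44.7% of all genes, with a median of -0.16. Fzd7, a Frizzled receptor, was at 36.5 and 35.7 CPM at 0 h and 120 and 128 CPM at 12 h, and Tcf7l1, the TCF factor known as a repressor of naive genes, at 117 and 113 CPM at 0 h and 187 and 207 CPM at 12 h. Porcn, the enzyme that acylates Wnt ligands, was at 29.1 and 23.8 CPM at 0 h and 65.8 and 60.8 CPM at 12 h. These 3 rose, each with no overlap between times. The co-receptor gene Lrp5 fell by 0.74 and the kinase gene Gsk3b, whose product CHIR99021 inhibits, by 0.55 on the log2 scale. Ctnnb1, which encodes beta-catenin itself, fell by 0.19, from 1192 to 1045 CPM.

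Feedback inhibitors of ERK signalling rose. Of 11 tested, 8 rose (72.7%, beside 21.0% of all genes) and 0 fell, with a median log2 fold change of 0.59. Spry4, a Sprouty inhibitor of receptor tyrosine kinase signalling, was at 1.03 and 0.608 CPM at 0 h and 66.1 and 65.0 CPM at 12 h, a 79.6-fold rise (adjusted p = 6.1e-57). Dusp6, the phosphatase that acts on ERK, was at 8.27 and 7.14 CPM at 0 h and 84.1 and 77.7 CPM at 12 h, and Dusp4, a nuclear phosphatase of the same family, at 0.689 and 1.97 CPM at 0 h and 14.3 and 14 CPM at 12 h. The log2 fold changes were 3.40 ± 0.12 (SE; adjusted p = 2.8e-53) for Dusp6 and 3.35 ± 0.27 (SE; adjusted p = 2.6e-21) for Dusp4, and for each gene both 12 h libraries lay above both at 0 h. Phlda1 rose from 1.63 to 9.92 CPM and Dusp5 from 0.973 to 3.93 CPM. Spred1 and Spred2, membrane inhibitors of Ras signalling, rose by 0.59 and 0.33 on the log2 scale. Spry2, at 76.7 and 77.0 CPM at 0 h and 74.4 and 81.2 CPM at 12 h, was not called, and neither were Il17rd and Spred3.

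The ETS factors and immediate early genes of ERK were called in both directions, 5 of 13 up (38.5%, beside 21.0% of all genes) and 4 down (30.8%, beside 23.7%), and 5 of the 18 listed did not pass the filter. The rises included the 3 ETS factors of the PEA3 family. Etv4 was at 13.1 and 13.4 CPM at 0 h and 143 and 144 CPM at 12 h (adjusted p = 5.5e-66), Etv1 at 9.13 and 8.81 CPM at 0 h and 47.3 and 44.9 CPM at 12 h, and Etv5, already high at 0 h, at 311 and 303 CPM at 0 h and 401 and 389 CPM at 12 h. Etv4 changed 10.8-fold and Etv5 1.29-fold. Srf, which encodes serum response factor, rose by 0.44 on the log2 scale. Fosl2, Junb, Elk3 and Elk4 fell, Junb from 6.96 to 3.45 CPM, and Jun and Egr1 were not called, with Egr1 at 0.152 and 0.269 CPM. The median of 0.12 was 0.02 without replicate 2 of 0 h. In that setting, or by DESeq2, 2 of the list fell: Fosl2 lost its call in both, Elk4 without that library and Elk3 by DESeq2. The fall of Elk3, -0.52, was also lost without replicate 1 of 0 h, at -0.28 (adjusted p = 0.25). The promoter of Srf (chr17:46556113-46556412, minus strand, GRCm38.p6) is shown as the most strongly called member of this list, by adjusted p, whose promoter holds the ETS letters CCGGAA, in capitals, starting 122 bases before the start.
Srf: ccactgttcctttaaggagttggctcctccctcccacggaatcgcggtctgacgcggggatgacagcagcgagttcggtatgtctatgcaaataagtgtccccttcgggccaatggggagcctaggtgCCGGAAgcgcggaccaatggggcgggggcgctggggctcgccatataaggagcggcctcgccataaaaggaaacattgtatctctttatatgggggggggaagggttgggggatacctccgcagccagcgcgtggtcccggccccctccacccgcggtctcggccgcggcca
Searched on both strands, CCGGAA was in 3 of 13 promoters of this list (23.1%) and 1 of 8 of the feedback inhibitors (12.5%, Spry2), beside 30.1% of tested genes.

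The LIF receptor and STAT3 axis fell in part. Of 14 genes, 8 fell (57.1%, beside 23.7% of all genes) and 2 rose, with a median log2 fold change of -0.44. Socs3, the feedback inhibitor of JAK and a direct STAT3 target, was at 55.5 and 60.5 CPM at 0 h and 2.88 and 3.88 CPM at 12 h, and was 17.1-fold lower (adjusted p = 4.4e-46). Bcl3, an IkB family co-regulator, was at 60.8 and 74.0 CPM at 0 h and 7.81 and 10.3 CPM at 12 h, and Stat3 itself at 187 and 170 CPM at 0 h and 54.4 and 60.2 CPM at 12 h, with no overlap between times in either. Their log2 fold changes were -2.90 ± 0.13 (SE; adjusted p = 7.8e-43) and -1.63 ± 0.07 (SE; adjusted p = 2.1e-46). The adhesion molecule gene Icam1 fell by 1.63 on the log2 scale, the kinase gene Pim1 by 0.82 and Il6st, which encodes the gp130 receptor chain, by 0.73. The other receptor chain gene, Lifr, was at 88.4 and 93.6 CPM at 0 h and 102 and 99.9 CPM at 12 h and rose by 0.15, Ptpn11 rose by 0.17, and Jak1 was not called. Both rises were lost without replicate 2 of 0 h or replicate 1 of 12 h, which left 0, and that of Lifr was lost by DESeq2 and without any 1 of the 4 libraries. Socs3 is shown because it was the most strongly called member of the list, by adjusted p, with the STAT letters TTCNNNGAA in its promoter (chr11:117969317-117969616, minus strand, GRCm38.p6), where N is any base; the match, in capitals, starts 154 bases before the start.
Socs3: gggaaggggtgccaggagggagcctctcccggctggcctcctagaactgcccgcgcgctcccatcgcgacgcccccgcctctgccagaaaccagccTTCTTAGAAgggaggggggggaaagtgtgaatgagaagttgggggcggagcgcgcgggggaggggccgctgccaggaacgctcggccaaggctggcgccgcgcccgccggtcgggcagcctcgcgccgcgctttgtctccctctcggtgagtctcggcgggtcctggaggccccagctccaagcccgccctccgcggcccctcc
The motif reads the same on both strands, and was in 3 of 13 promoters of the list (23.1%; Cish, Icam1 and Socs3) beside 8.03% of tested genes.

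**Figure D2:**
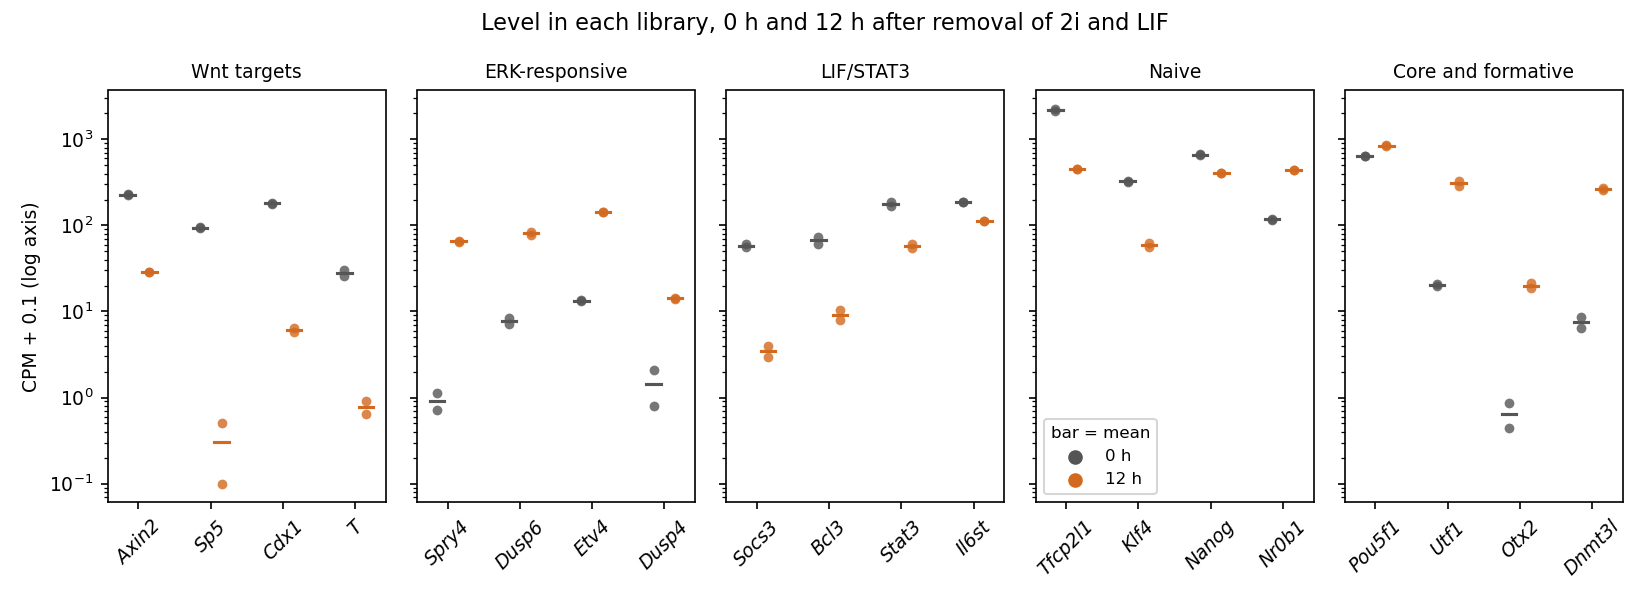
Level of 20 genes in each library (CPM + 0.1, log axis), grey at 0 h and orange at 12 h, with 2 libraries per time as points and their mean as a bar; the panels hold Wnt targets, ERK-responsive genes, LIF and STAT3 genes, naive factors, and core and formative factors. Grey and orange points do not overlap for any gene, the Wnt and LIF panels show falls, the ERK panel shows rises, and among the naive factors shown Nr0b1 alone is higher at 12 h.

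Naive pluripotency factors had begun to fall at 12 h, to very different degrees. Of 16, 12 fell (75.0%, beside 23.7% of all genes), 2 rose and 2 were not called, with a median log2 fold change of -0.55 ± 0.02. Tfcp2l1, a factor downstream of both LIF and Wnt signals in ES cells, was at 2242 and 2123 CPM at 0 h and 451 and 448 CPM at 12 h, and was 4.85-fold lower (adjusted p = 3e-84). Klf4, a Krüppel-like factor that STAT3 activates, was at 323 and 333 CPM at 0 h and 55.8 and 63.0 CPM at 12 h, 5.52-fold lower. Klf2, its relative, was at 245 and 263 CPM at 0 h and 118 and 126 CPM at 12 h, and Dppa3, a maternal factor that protects DNA from demethylation in the zygote, at 70.8 and 81.9 CPM at 0 h and 17.5 and 19.9 CPM at 12 h. All 4 fell with groups well apart. Spic, an ETS family factor, fell by 2.78 on the log2 scale, and Prdm14, which restrains FGF signalling and de novo methylation in ES cells, by 1.25. Nanog, at 650 and 680 CPM at 0 h and 412 and 406 CPM at 12 h, and Esrrb, at 912 and 919 CPM at 0 h and 644 and 683 CPM at 12 h, had lost less: their log2 fold changes were -0.70 ± 0.04 and -0.47 ± 0.04 (SE). Klf5, Tbx3, Nr5a2 and Gbx2 fell by 0.45 to 0.55 on the log2 scale.

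Members that did not fall stood out from the rest. Nr0b1, the orphan nuclear receptor Dax1, was at 120 and 117 CPM at 0 h and 438 and 441 CPM at 12 h, a 3.72-fold rise (adjusted p = 1.4e-66), and all 12 h values lay above all 0 h values. Zfp42, which encodes Rex1 and is widely used as a naive reporter, was at 326 and 344 CPM at 0 h and 393 and 390 CPM at 12 h and rose by 0.23 on the log2 scale. Tcl1, at 63.4 and 76.1 CPM at 0 h and 63.5 and 64.0 CPM at 12 h, and Sox15 were not called.

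The pluripotency factors shared by naive and formative cells rose. All 11 listed rose, beside 21.0% of all genes, with a median log2 fold change of 0.39. Pou5f1, which encodes Oct4, was at 641 and 641 CPM at 0 h and 852 and 834 CPM at 12 h, and Sox2 at 344 and 372 CPM at 0 h and 390 and 419 CPM at 12 h, rises of 0.39 and 0.17 on the log2 scale; the rise of Sox2 was lost without replicate 1 of 0 h or replicate 2 of 12 h (adjusted p = 0.071 and 0.053 in edgeR's test). Utf1, a chromatin-bound factor (chr7:139943856-139945112), was at 20.5 and 19.4 CPM at 0 h and 287 and 331 CPM at 12 h, 15.5-fold higher (adjusted p = 1.1e-35). Lin28a, the RNA-binding protein that blocks let-7 maturation, was at 73.9 and 78.2 CPM at 0 h and 296 and 292 CPM at 12 h. L1td1, Dppa2 and Dppa4 rose by 1.53, 1.66 and 1.42. The rise of Dppa5a, 0.12 with an adjusted p of 0.036, was lost without replicate 1 of 0 h or without either 12 h library, with an adjusted p of up to 0.36 in edgeR's test.

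Formative and primed factors rose in 19 of 20 cases (95.0%, beside 21.0% of all genes), with Hes6 not called and 0 falls, at a median log2 fold change of 1.75 ± 0.07. Otx2, the homeobox factor that opens formative enhancers (chr14:48656781-48667644), was at 0.345 and 0.759 CPM at 0 h and 18.6 and 21.1 CPM at 12 h. Both 12 h libraries lay far above either 0 h library, and the log2 fold change was 5.10 ± 0.30 (SE; adjusted p = 6.8e-32). Myc was at 9.13 and 8.51 CPM at 0 h and 59.9 and 56.2 CPM at 12 h. Pou3f1, the formative factor Oct6, rose from 1.45 to 10.5 CPM, Sox3 from 0.983 to 8.04 CPM and the epithelial factor Grhl2 from 3.47 to 19.1 CPM. Fgf5, the classical epiblast marker, was still scarce: it was at 0.172 and 0 CPM at 0 h and 2.19 and 1.74 CPM at 12 h, at least 4.04-fold higher. Pim2, a kinase gene, was at 9.82 and 14 CPM at 0 h and 44.3 and 45.7 CPM at 12 h, and Lin28b at 8.44 and 7.14 CPM at 0 h and 11 and 11.8 CPM at 12 h. The smallest called rises were those of Mycn, 0.27, and Cldn6, 0.46 on the log2 scale; the latter was lost by DESeq2 and without replicate 2 of 0 h or replicate 1 of 12 h, and the rise of Lin28b without replicate 2 of either time.

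Among 10 enzymes and cofactors of DNA methylation, 4 rose and 2 fell, beside 21.0% and 23.7% of all genes, with a median log2 fold change of 0.25. The 3 genes of de novo methylation rose together. Dnmt3a was at 76.9 and 68.5 CPM at 0 h and 329 and 325 CPM at 12 h and Dnmt3b at 134 and 123 CPM at 0 h and 399 and 386 CPM at 12 h, log2 fold changes of 2.17 ± 0.05 (SE; adjusted p = 1.9e-73) and 1.61 ± 0.05 (SE; adjusted p = 9.8e-51). Dnmt3l, the catalytically inactive cofactor of both (chr10:78042287-78063622), was at 8.62 and 6.38 CPM at 0 h and 271 and 260 CPM at 12 h, a 35.7-fold rise (adjusted p = 1.1e-08). Dnmt3l overlaps Aire, which was counted at 1.03 and 0.456 CPM at 0 h and 10.6 and 14.2 CPM at 12 h, so reads from both cannot be told apart where the genes overlap. The maintenance methyltransferase gene Dnmt1, at 605 and 606 CPM at 0 h and 572 and 613 CPM at 12 h, was not called, and its partner gene Uhrf1 fell by 0.13 on the log2 scale, from 895 to 817 CPM, a call lost without replicate 2 of 0 h or replicate 1 of 12 h. Uhrf2 was at 65.7 and 67.9 CPM at 0 h and 38.6 and 39.8 CPM at 12 h and fell by 0.77. Of the TET dioxygenases, which oxidise 5-methylcytosine, Tet1 rose by 0.53 and Tet2 and Tet3 were not called.

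FGF ligands and receptors numbered 12, of which 11 were tested, 5 rose (45.5%, beside 21.0% of all genes) and 2 fell. Fgf4, the autocrine ligand of ES cells, was at 287 and 298 CPM at 0 h and 388 and 405 CPM at 12 h and rose by 0.44 on the log2 scale. The receptor gene Fgfr1 rose by 0.29 and Fgfr2 by 1.16, the latter from 1.53 to 3.46 CPM, a call lost without replicate 2 of 0 h or, at 0.87 (adjusted p = 0.15), replicate 1 of 12 h. Fgfrl1, a receptor that lacks the kinase domain, was at 24.1 and 24.8 CPM at 0 h and 7.67 and 6.55 CPM at 12 h, and Fgf10 was at least 9.64-fold lower. Fgfrl1 fell 3.44-fold.

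In the Nodal pathway 7 of 18 tested genes rose (38.9%, beside 21.0% of all genes) and 5 fell (27.8%, beside 23.7%). The median was 0.20, and 0.10 without replicate 1 of 0 h. Its ligand Nodal was at 53.3 and 56.7 CPM at 0 h and 86.9 and 77.1 CPM at 12 h and the co-receptor Tdgf1 at 293 and 294 CPM at 0 h and 379 and 353 CPM at 12 h, both up. Lefty1, an inhibitor and target of the pathway, was at 21.9 and 26.4 CPM at 0 h and 56.6 and 61.0 CPM at 12 h, whereas Lefty2 was at 64.8 and 73.8 CPM at 0 h and 44.7 and 48.7 CPM at 12 h: the first rose and the second fell. Skil, which encodes the SMAD co-repressor SnoN, rose by 1.02. Inhbb, the activin B subunit, was at 2.76 and 4.56 CPM at 0 h and 31.2 and 30.3 CPM at 12 h, 8.26-fold higher, and the convertase genes Furin and Pcsk6 fell by 1.07 and 0.93.

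In the BMP pathway 4 of 14 genes rose and 4 fell, 28.6% each, beside 21.0% and 23.7% of all genes tested. Bmp4 was at 7.07 and 6.38 CPM at 0 h and 25.6 and 22.7 CPM at 12 h and rose, and Bmp7 at 16.7 and 15.3 CPM at 0 h and 3.56 and 3.88 CPM at 12 h and fell. The target genes Id1 and Id3, inhibitors of bHLH factors, rose by 1.43 and 2.04 on the log2 scale, Id3 from 8.56 to 35.6 CPM. Id4 and Msx2 fell by 1.35 and 1.82, the latter lost without replicate 1 of 0 h (adjusted p = 0.12), and Id2 was not called. Of 14 Notch genes 3 rose and 2 fell; the 35.7% called compare with 44.7% of all genes tested. Their median was 0.06, and 0.16 without replicate 1 of 0 h. Rbpj, the DNA-binding effector of Notch, was at 97.5 and 91.3 CPM at 0 h and 281 and 271 CPM at 12 h, and rose. The ligand gene Dll1 was at least 8.22-fold higher from the floor, the ligand gene Jag1 fell by 0.83 and Hes1, a target repressor, by 1.24. The Notch1 and Notch2 receptors were not called.

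Among 21 genes of the G1 phase, 7 rose and 7 fell, 33.3% each, beside 21.0% and 23.7% of all genes, and without replicate 2 of either time 4 fell. Ccnd2, which encodes cyclin D2, was at 2.41 and 0.911 CPM at 0 h and 26.4 and 30.7 CPM at 12 h, a 17.6-fold rise (adjusted p = 2.2e-30), Ccnd3 was at 183 and 197 CPM at 0 h and 287 and 301 CPM at 12 h and Ccne1 at 133 and 134 CPM at 0 h and 217 and 215 CPM at 12 h. All 3 cyclins rose without overlap. Ccnd1, at 358 and 372 CPM at 0 h and 336 and 350 CPM at 12 h, was not called. Cdkn1a, the CDK inhibitor p21, was at 402 and 392 CPM at 0 h and 109 and 108 CPM at 12 h and fell 3.65-fold (adjusted p = 2.7e-63). Cdkn1c, the inhibitor p57, moved the other way, from 2.17 to 9.39 CPM. Of 24 DNA replication genes, 13 rose (54.2%, beside 21.0% of all genes) and 0 fell, but by little: their median was 0.15, and the largest rise, in the polymerase gene Pold1, was 0.46 on the log2 scale. The ribonucleotide reductase subunit Rrm2 rose by 0.35 and Mcm5, part of the replicative helicase, by 0.30.

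Of 15 p53 targets tested, 7 rose (46.7%, beside 21.0% of all genes) and 4 fell (26.7%, beside 23.7%). The median was 0.08, and 0.13 without replicate 1 of 12 h. Pmaip1, which encodes the pro-apoptotic protein Noxa, was at 17.8 and 17.5 CPM at 0 h and 52.9 and 51.2 CPM at 12 h, 2.96-fold higher. Sesn2 rose by 0.58 on the log2 scale, Phlda3 fell by 0.72 and Mdm2, at 128 and 130 CPM at 0 h and 139 and 134 CPM at 12 h, was not called. Cdkn1a, described above, is also a p53 target.

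Lysosomal genes fell broadly. Of 31 tested, 26 fell (83.9%, beside 23.7% of all genes), 2 rose and 3 were not called, with a median log2 fold change of -0.83. Npc2, a cholesterol-binding protein of the lumen, was at 536 and 543 CPM at 0 h and 205 and 211 CPM at 12 h (adjusted p = 5e-58). The cathepsin gene Ctsb was at 422 and 377 CPM at 0 h and 162 and 154 CPM at 12 h, and Ctsa, a carboxypeptidase that protects other hydrolases, at 286 and 283 CPM at 0 h and 101 and 103 CPM at 12 h. These 3 were 2.60-fold, 2.53-fold and 2.79-fold lower. The cathepsin gene Ctsc fell by 2.60 on the log2 scale, the hexosaminidase gene Hexa by 1.74 and the membrane glycoprotein gene Lamp2 by 1.68. Lamp1, at 641 and 633 CPM at 0 h and 367 and 348 CPM at 12 h, fell by 0.83. Against this direction, Scarb2, which carries glucocerebrosidase to the lysosome, and the cathepsin gene Ctsf rose by 1.14 and 1.19, and Npc1 was not called.

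Cholesterol synthesis genes moved the other way and together. Of 25, 20 rose (80.0%, beside 21.0% of all genes) and 2 fell, with a median log2 fold change of 0.44. Lss, which encodes lanosterol synthase, was at 87.2 and 93.3 CPM at 0 h and 158 and 161 CPM at 12 h (adjusted p = 2.6e-27), Msmo1, a sterol methyl oxidase, at 223 and 204 CPM at 0 h and 324 and 328 CPM at 12 h and Sqle, squalene epoxidase, at 212 and 212 CPM at 0 h and 315 and 321 CPM at 12 h. Each rose by under log2 1, namely 0.82, 0.61 and 0.59 on the log2 scale. Hmgcs1, an HMG-CoA synthase, rose by 0.50. Ebp and Tm7sf2 fell by 0.41 and 0.38; the fall of Tm7sf2 was lost without replicate 2 of either time, and was -0.22 (adjusted p = 0.16) without that of 12 h. The SREBP letters TCACNCCAC, searched on both strands, were in 1 of 17 promoters (5.9%, Hmgcs1) beside 1.47% of tested genes.

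The series' title names amino acid uptake. Of 31 plasma membrane amino acid transporters 28 were tested, and 10 rose (35.7%, beside 21.0% of all genes) and 8 fell (28.6%, beside 23.7%). The median of 0.24 was 0.08 without replicate 2 of 0 h, 0.03 without replicate 2 of 12 h and 0.00 with no filter on low counts. Slc7a7, the light chain that exports cationic amino acids in exchange for neutral ones, was at 19.8 and 20.5 CPM at 0 h and 127 and 129 CPM at 12 h, 6.32-fold higher (adjusted p = 6.5e-58). Slc7a3, a cationic amino acid importer, was at 145 and 139 CPM at 0 h and 482 and 484 CPM at 12 h, and Slc38a2, the sodium-coupled neutral importer SNAT2, at 267 and 272 CPM at 0 h and 543 and 548 CPM at 12 h. In these 3 both 12 h libraries lay above both at 0 h. Slc3a2 and Slc7a5, which form the LAT1 exchanger, rose by 0.40 and 0.54 on the log2 scale. Slc1a5, the glutamine exchanger ASCT2, fell by 0.23, and the cationic importer Slc7a1 was not called at 270 and 258 CPM at 0 h and 236 and 245 CPM at 12 h. Falls included Slc16a10, from 9.75 to 1.08 CPM, and Slc7a8, from 14.1 to 3.84 CPM.

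Genes of the ATF4 response, by which cells answer amino acid shortage, rose in 9 of 27 cases and fell in 4; the 48.1% called compare with 44.7% of all genes tested. Their median was 0.03, and 0.00 to 0.08 without single libraries. Asns, asparagine synthetase, was at 1269 and 1266 CPM at 0 h and 640 and 652 CPM at 12 h, 1.96-fold lower (adjusted p = 8.5e-46). Cth, which makes cysteine from cystathionine, was at 188 and 192 CPM at 0 h and 341 and 348 CPM at 12 h, and Cbs, the step before it, at 126 and 116 CPM at 0 h and 75.9 and 72.7 CPM at 12 h: the first rose and the second fell. Chac1 rose from 10.0 to 24.0 CPM, Atf4 by 0.25 on the log2 scale, and Ddit3, Psat1 and Phgdh were not called. Of 20 aminoacyl-tRNA synthetases 11 rose (55.0%, beside 21.0% of all genes) and 2 fell, all within 0.37 of 0 on the log2 scale. Qars, the glutaminyl enzyme, had the largest change and a fall. Fewer rose without replicate 1 of 0 h.

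Glycolytic genes fell in 11 of 23 cases (47.8%, beside 23.7% of all genes) and rose in 4 (17.4%, beside 21.0%). The median of -0.13 was -0.00 without replicate 1 of 12 h and -0.20 without replicate 2 of 12 h. Slc2a3, the glucose transporter GLUT3, was at 1872 and 1880 CPM at 0 h and 958 and 953 CPM at 12 h and hexokinase 1, Hk1, at 244 and 249 CPM at 0 h and 129 and 126 CPM at 12 h, falls of 0.97 and 0.95 on the log2 scale. Pfkp, the platelet phosphofructokinase, rose by 0.86 and Pdk1, which restrains pyruvate oxidation, by 1.15. Gapdh was counted at only 16.9 and 17.4 CPM; how reads shared with pseudogenes were counted is not stated, and values of Gapdh and other genes with many near-identical copies are uncertain. The same holds for the 85 cytosolic ribosomal protein genes, of which 8 rose and 13 fell with a median of -0.03; 5 to 13 rose and 5 to 18 fell in other settings, and the median ranged from -0.05 to 0.03. Nuclear genes of oxidative phosphorylation also moved little, 3 of 77 up and 15 down, with a median of -0.02 that ranged from -0.04 to 0.01 (1 to 4 up and 9 to 18 down). Of 8 mitochondrially encoded transcripts 4 fell and 0 rose, with a median of -0.12. For each of these lists the background was 21.0% of all genes rising and 23.7% falling. The ribosomal protein and nuclear oxidative phosphorylation genes lay below both shares in the main fit. COX1 fell by 0.20, and ND3, at 33.3 and 47.7 CPM at 0 h and 18.6 and 19.1 CPM at 12 h, by 1.11. Regulators of macropinocytosis and actin, the route of bulk uptake, fell in 12 of 23 cases (52.2%, beside 23.7% of all genes) and rose in 3, with a median of -0.16, Snx18 and Snx1 by 0.64 and 0.70; without replicate 2 of 12 h, 1 rose.

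**Figure D3:**
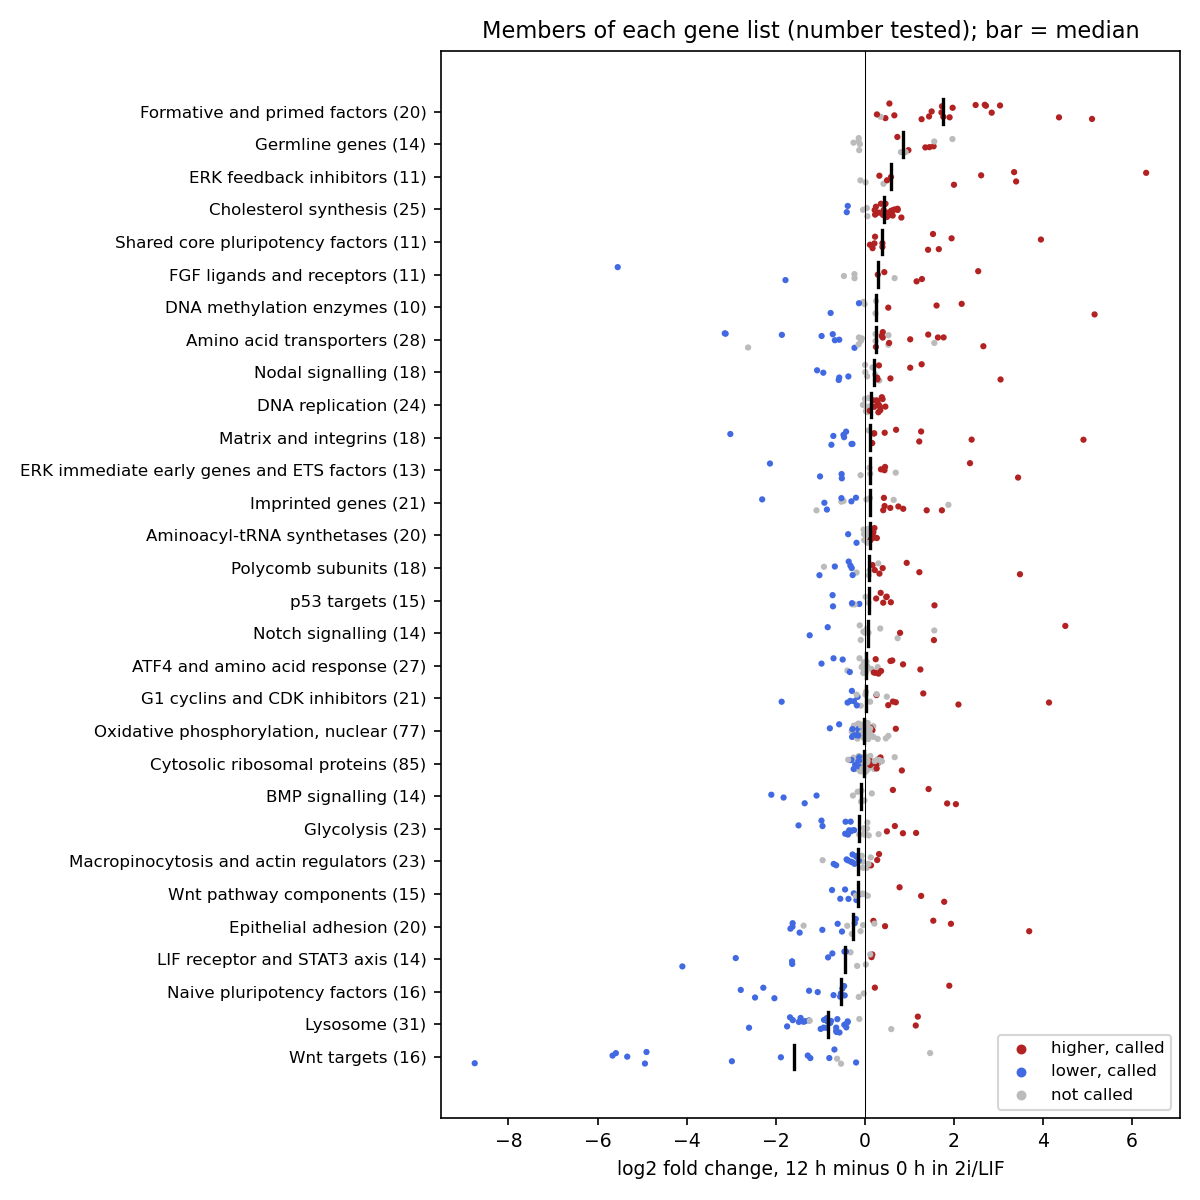
Log2 fold change at 12 h against 0 h of each tested member of 30 gene lists (horizontal axis), 1 row per list ordered by its median (black bar), red where a member rose, blue where it fell and grey where it was not called. Formative and primed factors lie highest (median 1.75) and Wnt targets lowest (median -1.58), with lysosomal genes next (median -0.83); most other medians lie close to 0.

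Adhesion and matrix genes changed in both directions. Of 20 epithelial adhesion genes 5 rose (25%, beside 21.0% of all genes) and 9 fell (45%, beside 23.7%), with a median of -0.26, and without replicate 2 of 0 h 3 rose. Cdh1, E-cadherin, was at 669 and 655 CPM at 0 h and 464 and 464 CPM at 12 h and fell by 0.51 on the log2 scale, and Cdh3, P-cadherin, was at 21.5 and 21.7 CPM at 0 h and 64.0 and 61.6 CPM at 12 h and rose by 1.54. Esrp1, an epithelial splicing factor, rose from 1.30 to 16.9 CPM. Of 18 matrix and integrin genes 9 rose and 8 fell, 94.4% called beside 44.7% of all genes. Lama1, the laminin alpha 1 chain of the embryonic basement membrane, was at 170 and 154 CPM at 0 h and 19.7 and 20.2 CPM at 12 h, 8.11-fold lower (adjusted p = 5.9e-61), and Lama5 was at 424 and 409 CPM at 0 h and 250 and 244 CPM at 12 h. Itga3, an integrin chain that binds laminin, was at 22.2 and 17.5 CPM at 0 h and 103 and 104 CPM at 12 h, and Itga9 was at 0.862 and 0.608 CPM at 0 h and 21.2 and 23.3 CPM at 12 h. The integrin genes rose 5.27-fold and 30.0-fold.

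Genes of polycomb complexes, of the germline and of imprinted loci changed in part. Of 18 polycomb genes 7 rose (38.9%, beside 21.0% of all genes) and 6 fell (33.3%, beside 23.7%). The accessory subunit genes Jarid2 and Kdm2b were at 279 and 291 CPM at 0 h and 550 and 544 CPM at 12 h and at 111 and 103 CPM at 0 h and 243 and 256 CPM at 12 h, and both rose. The core subunit gene Suz12 fell by 0.29 on the log2 scale and Ezh2 rose by 0.17. Of 14 germline genes tested 5 rose (35.7%, beside 21.0% of all genes) and 0 fell, among them the helicase gene Ddx4, at 6.03 and 3.95 CPM at 0 h and 11 and 14.3 CPM at 12 h, and the homeobox gene Rhox5, at 63.9 and 71.1 CPM at 0 h and 199 and 196 CPM at 12 h, both without overlap. Dazl and Stra8 were not called. Of 21 imprinted genes tested 8 rose (38.1%, beside 21.0% of all genes) and 6 fell (28.6%, beside 23.7%). Their median of 0.11 ranged from -0.03 to 0.28 over the settings tried. Plagl1, a zinc finger factor, was at 155 and 154 CPM at 0 h and 30.3 and 32.2 CPM at 12 h and Mest at 37.1 and 37.1 CPM at 0 h and 119 and 126 CPM at 12 h: Plagl1 fell 4.94-fold and Mest rose 3.32-fold. Meg3 fell by 0.53.

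Markers of other cell types were present to differing extents, and their part in the results above was not tested. Summed over the list, trophoblast markers were at 86.6 and 85.9 CPM at 0 h and 21.8 and 19.6 CPM at 12 h, with 7 of 9 passing the filter and Elf5 and Hand1 at or under 3 counts in all 4 libraries. Most of this sum was Tfap2c, at 61.0 and 64.6 CPM at 0 h and 7.81 and 6.95 CPM at 12 h, which ES cells also express. Of the other members Cdx2 and Krt7 fell, whereas Ascl2 rose from 1.73 to 4.48 CPM and Eomes, given below, rose too. The number of members called varied between settings. Mesendoderm markers summed to 42.4 and 33.1 CPM at 0 h and 8.08 and 10.3 CPM at 12 h, with 4 of 9 passing the filter and Fgf8, Foxa2 and Mesp1 at or under 3 counts. T, already described as a Wnt target, made up most of the 0 h value and fell to 4 and 6 counts at 12 h. Gsc and Wnt3 fell to the floor. Wnt3 had only 8 and 2 counts at 0 h, and its call was lost without replicate 1 of 0 h. Eomes rose by 0.66 on the log2 scale (adjusted p = 0.039), a call lost by DESeq2 and without replicate 2 of either time, and was at 0.25 (adjusted p = 0.58) without that of 0 h. Primitive endoderm markers summed to 341 and 346 CPM at 0 h and 347 and 343 CPM at 12 h, mostly Sparc, with 6 of 10 passing and Gata6 and Foxa2 at or under 3 counts. Within this list Col4a1 rose by 1.22 on the log2 scale, and Lamb1, Gata4 and Pdgfra fell by 0.71, 1.24 and 1.63. The falls of Gata4 and Pdgfra were lost by DESeq2, that of Gata4 also without any 1 library and that of Pdgfra without replicate 1 of 0 h or replicate 2 of 12 h (-1.08, adjusted p = 0.17). Neurectoderm markers summed to 80.1 and 83.5 CPM at 0 h and 92.2 and 98 CPM at 12 h, with 5 of 8 passing. The largest part was Tubb3, not called, at 46.0 and 46.6 CPM at 0 h and 46.6 and 51.1 CPM at 12 h. Within the list Sox1 rose from 0.659 to 6.97 CPM and Pax6 rose at least 19.9-fold. Nes rose by 0.57 and Ncam1 fell by 1.09 on the log2 scale. Hes5 and Neurog2 were at or under 3 counts. Pax3, which did not pass, had 6 and 9 counts at 0 h and 1 and 0 at 12 h. Feeder fibroblast markers summed to 17.4 and 16.4 CPM at 0 h and 5.07 and 4.41 CPM at 12 h, with 5 of 9 passing and Col3a1, Dcn, Lum, Postn and S100a4 at or under 3 counts. Pdgfrb made up most of the 0 h sum. It was at 13.4 and 12.3 CPM at 0 h and 3.15 and 1.34 CPM at 12 h and was 5.72-fold lower at 12 h (adjusted p = 6e-15 in edgeR's test). Col1a2 fell by 2.94 and Thy1 rose by 1.44 on the log2 scale, though by DESeq2 0 of the list rose. The 10 markers of the 2-cell-like state that were found in the table summed to 9.99 and 8.95 CPM at 0 h and 20 and 14.3 CPM at 12 h. In the main fit 1 of them, Zscan4d, rose, by 1.57 on the log2 scale (1.15 to 2.10 without single libraries). The number that rose varied between settings.

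How far this 12 h change is shared with cells from serum/LIF+2i was tested as the difference between both 12 h changes, whose libraries are separate. The difference passed edgeR's test for 1315 genes (9.20% of those tested), more positive from serum/LIF+2i for 686 (52.2%) and more negative for 629; without ribosomal RNA genes in the table, 41.3% of 1345 were more positive. Of the 6382 genes changed from 2i/LIF, 921 (14.4%) had such a difference. From serum/LIF+2i 7309 genes changed, and of the 4984 changed in both, 4921 (98.7%) changed in the same direction. A difference of at least log2 1 was seen in 232 called genes.

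For the list counts that follow, the background is the 9.20% of all genes tested that had a difference. Members with a difference in the cholesterol list were all more positive from serum/LIF+2i (13 of 25). Among them Lss was at 58.0 and 59.3 CPM at 0 h and 150 and 147 CPM at 12 h from serum/LIF+2i, a difference of 0.52 ± 0.08 (SE, adjusted p = 4e-07 in edgeR's test). Lysosomal members with a difference were all more negative (10 of 31), Hexa by -0.88 ± 0.12 (SE), and so were the glycolytic ones (7 of 23), Slc2a3 by -0.48 ± 0.05 (SE). The ERK feedback members with a difference were more positive (5 of 11): Dusp6 rose 10.5-fold from 2i/LIF and was at 2.50 and 3.08 CPM at 0 h and 85.6 and 82.7 CPM at 12 h from serum/LIF+2i, a difference of 1.51 ± 0.26 (SE; adjusted p = 6.6e-06). Of naive factors, 3 were more positive and 6 more negative, among the latter Klf4 with a difference of -0.96 ± 0.09 (SE). The Wnt targets differed in 1 of 16, Tcf7, whose call was lost by DESeq2 and in 2 of 8 settings without 1 library, and Axin2 had a difference of 0.13 ± 0.12 (SE; adjusted p = 0.61).

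By the size of the difference, the genes named by rule included Exph5, Stra8 and Porcn as more positive from serum/LIF+2i and Prss50, Dnmt3l, Aire and Bhmt2 as more negative. Dnmt3l was at 184 and 153 CPM at 0 h and 667 and 667 CPM at 12 h from serum/LIF+2i, so that it started higher there than in 2i/LIF and the difference was -3.17 ± 0.24 (SE; adjusted p = 4.4e-05). Prss50 was at 0.294 and 0.441 CPM at 0 h and 15.9 and 15 CPM at 12 h there, and its difference has no defined size, since the 0 h libraries of both media held at most 3 counts. The calls of Exph5, Bhmt2 and Prss50 for the difference were each lost without at least 1 single library. Stra8, a gene of meiotic entry, was not called after 2i/LIF. Its levels there were 22.2 and 19.9 CPM at 0 h and 20.7 and 18.2 CPM at 12 h. The serum/LIF+2i libraries held less of this transcript, 0.882 and 1.47 CPM at 0 h and 5.68 and 6.49 CPM at 12 h. Bhmt2, a homocysteine methyltransferase gene, fell from a mean of 23.8 CPM to one of 3.52 CPM after 2i/LIF. After serum/LIF+2i its libraries held 13.5 and 12.6 CPM at 0 h and 0.135 and 0.532 CPM at 12 h. Changes of opposite direction were called in 63 genes. All 63 also passed the test of the difference, which is no separate support, since it uses the same libraries and fit. Among these, and chosen after their values were seen, the homeobox factor Gbx2 fell from 51.7 to 35.5 CPM after 2i/LIF and rose by 0.63 on the log2 scale from serum/LIF+2i, and Nes, which encodes the intermediate filament nestin, rose from 13.3 to 20 CPM after 2i/LIF and fell by 0.29 from serum/LIF+2i.

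**Figure D4:**
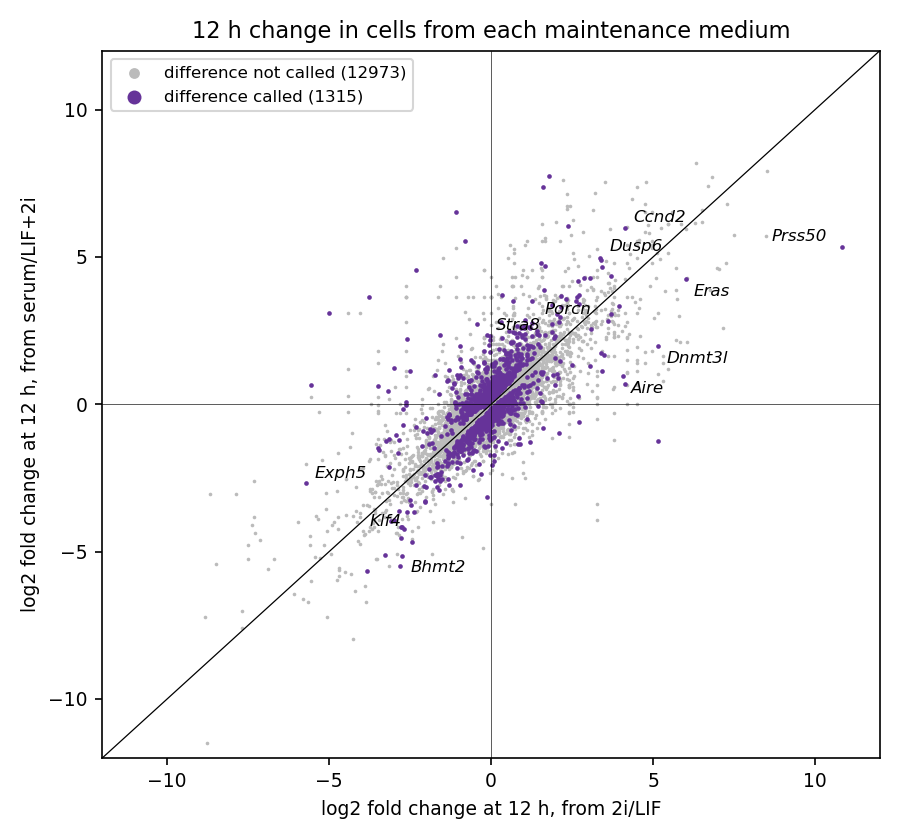
Log2 fold change at 12 h against 0 h in cells from serum/LIF+2i (vertical axis) plotted against that in cells from 2i/LIF (horizontal axis) for 14288 genes, purple where the difference was called (1315) and grey where it was not; the diagonal marks equal change. Dnmt3l and Aire lie below the diagonal and Porcn and Exph5 above it.

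Levels at 24 h and 40 h in cells from 2i/LIF show where the 12 h values stood in the time course. They are given as mean levels in CPM, the later steps were not tested, and the genes were chosen after their values were seen. Some genes were highest at 12 h: Nr0b1 was at 118, 440, 319 and 26.3 CPM at 0, 12, 24 and 40 h, Inhbb at 3.66, 30.8, 21.5 and 1.24 CPM and Itga9 at 0.735, 22.3, 10.7 and 2.27 CPM. Bmp4 and Porcn were highest at 12 h too, at 6.72, 24.2, 3.03 and 0.533 CPM and 26.5, 63.3, 29.9 and 4.06 CPM. Others were lower at 12 h than at 0 h and higher again by 40 h. Lef1 was at 26.6, 15.4, 58.9 and 112 CPM, Tcf7 at 117, 50.1, 62.7 and 97.0 CPM and Ldha, lactate dehydrogenase A, at 447, 329, 516 and 1342 CPM. The largest part of the change was still ahead for several factors: Nanog was at 665, 409, 146 and 27.8 CPM, Notum at 167, 146, 96.6 and 6.24 CPM and Dnmt3b at 129, 392, 1103 and 2221 CPM. Sp5 had reached the floor by 12 h and Axin2, at 228, 28.8, 14.9 and 6.89 CPM, most of its fall.

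**Figure D5:**
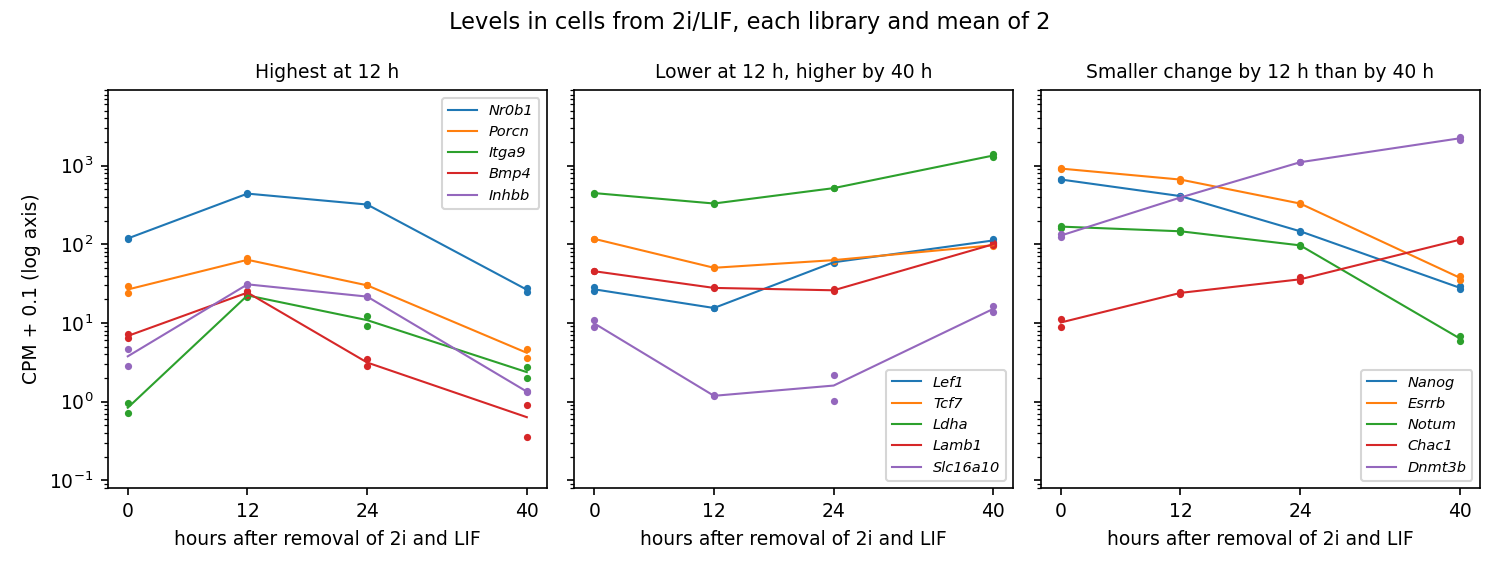
Level of 15 genes at 0, 12, 24 and 40 h after removal of 2i and LIF (CPM + 0.1, log axis) in cells from 2i/LIF, with each of 2 libraries as a point and lines through their means. The left panel shows genes highest at 12 h, such as Nr0b1, the middle panel genes lower at 12 h and higher by 40 h, such as Lef1, and the right panel genes such as Nanog with most of their change after 12 h.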

How the data were processed

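Per the labels' protocols, TRIzol was used for RNA extraction and a stranded mRNA kit for the libraries. The authors deposited whole-number counts per gene for 16 libraries, with totals that differ between libraries and no normalization; the submitters' processing notes name fastp, STAR, featureCounts and mm10. Versions, annotation, strand setting and the treatment of reads with several matches are not given in the sources used here. The table lists 27179 genes; 1049 lack a symbol and 5836 were never counted. It held 0 columns of other samples. Group and replicate number came from the sample titles, which give 12 h samples for both media although the protocol text names that time only for 2i/LIF.

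Low genes were removed by filterByExpr with all 8 groups (at least 10 counts, 15 in total). A single model (edgeR 4.0.16, R 4.3.3) held the 16 libraries and 8 group terms, which left 8 residual degrees of freedom and a common biological coefficient of variation of 3.19%. Contrasts were tested with edgeR's quasi-likelihood F test, robust and two-sided, with Benjamini-Hochberg adjustment over 14288 genes and a threshold of 0.05. The same fit gave the difference between the 12 h changes of the media. Standard errors were derived from the F statistic. On simulated data the exit comparison recovered 58.7%, 88.2% and 97.1% of 63, 68 and 69 genes changed by log2 0.5, 1 and 2. Among the 12996 genes fitted, 5 unchanged ones were called. Only 200 genes of at least 1 CPM were changed, in the 12 h group of 2i/LIF alone, and the noise followed the fit's own dispersions. With far more genes called in the data, the simulation cannot say how many of those calls are false. Coordinates and overlaps are those of RefSeq on GRCm38.p6, the assembly of mm10.

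The members and gene lists were chosen with earlier results of these data known, and no list was tested as a set. After the table was seen, the mitochondrial and ribosomal RNA lists were rewritten to its symbols, and histone genes were matched through older symbols. Dux and Gm6763 matched no gene. Genes were named by rule: the 10 largest rises and falls among called genes of at least 5 CPM, the 4 largest differences between media in each direction, the 5 largest losses and gains per kilobase, the 5 members with the smallest adjusted p for each of 9 lists and 3 for the others. Genes withheld from this text are not reported here, though list counts include them. Other list members named in the text were chosen after their values were seen. Alternatives were DESeq2 1.42.0, other scalings and filters, a minimum fold change, a fit of the groups compared only, a replicate block, each library left out and the table without ribosomal RNA genes.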

Additional observations from a re-analysis of the deposited data

Results flagged for a closer look

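Each result here was picked because the 12 h change differed between cells from serum/LIF+2i and cells from 2i/LIF, by edgeR's test of the difference itself at an adjusted p under 0.05. In all, 1315 of 14288 genes differed, among them 85 of the genes named in the text. Values are differences on the log2 scale, positive where the change from serum/LIF+2i was the more positive.

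For 41 of the 85, the call held in every setting tried other than a minimum fold change, wherever that setting gave an adjusted p. Positive among these were Stra8 at 2.48 and Porcn at 2.23. The ERK-responsive genes gave 1.51 for Dusp6, 1.21 for Etv4, 0.49 for Spred2, 0.44 for Spred1 and 0.35 for Il17rd. Pluripotency, germline and methylation genes gave 1.33 for Dazl, 1.17 for Gbx2, 1.13 for Dnmt3a, 0.71 for Dppa2, 0.56 for Nr0b1 and 0.30 for Lin28a. Slc7a7 differed by 0.97, Lss by 0.52, mt-Rnr2 by 0.36, Psat1 by 0.31, Hmgcs1 by 0.30, Ckb by 0.29 and Ccne1 by 0.28. Negative were Dnmt3l and the overlapping Aire at -3.17 and -3.11, Dppa3 at -1.26, Klf4 at -0.96, Utf1 at -0.61, Dnmt3b at -0.53, Nanog and L1td1 at -0.46 each and Rhox5 at -0.44. Lysosomal and metabolic genes gave -1.06 for Ctsc, -0.88 for Hexa, -0.48 for Slc2a3 and -0.30 for Cth. In signalling and other groups the values were -0.86 for Nes, -0.76 for Lefty2, -0.73 for Nodal, -0.61 for Cdkn1a, -0.53 for Pmaip1, -0.45 for Skil, -0.35 for Lama5 and -0.26 for Fgf4.

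The other 44 lost their call in at least 1 setting, 32 of them by DESeq2 and 43 without at least 1 single library. In 11 of these, leaving out 1 library also brought the value more than 1.5 times closer to 0. Among the libraries from 2i/LIF, Ccnd2 went from 1.84 to 1.03 without replicate 1 of 0 h, Dusp4 from 1.63 to 0.65, Inhbb from 1.25 to 0.83 and ND3 from 0.58 to 0.29 without replicate 2 of 0 h, and Spic from -1.77 to -1.12 without replicate 1 of 12 h. Among those from serum/LIF+2i, Inhbb went to 0.77 and Ccnd1 from 0.25 to 0.15 without replicate 2 of 0 h, Lamb1 from 0.45 to 0.29, Tdgf1 from -0.29 to -0.17 and Msmo1 from 0.20 to 0.12 without replicate 1 of 0 h, and Uhrf2 from 0.35 to 0.15 and Lamp2 from -0.33 to -0.21 without replicate 2 of 12 h. Prss50 had a fitted difference of -5.50 with no defined size, because the 0 h libraries of both media held at most 3 counts; DESeq2 gave an adjusted p of 0.072. Lost without 1 library but not by DESeq2, or where DESeq2 gave no adjusted p, were Exph5 at 3.06, Slc16a10 at 1.97, Id1 at 1.07, Ccnd3 at 0.26, Rplp1 at 0.20, Ctnnb1 at 0.19, Jun at -1.52 and Bhmt2 at -2.39. Of genes moved by over 1.5 times away from 0, Inhbb was at 2.00 without replicate 1 of 0 h and Bhmt2 at -3.69 without replicate 2 of 12 h from serum/LIF+2i. Lost by DESeq2 were the positive differences of Myc at 0.69, Phgdh at 0.40, Tcf7 at 0.34, Klf5 at 0.28, Slc3a2 at 0.21, Slc7a5 at 0.18 and Uhrf1 at 0.17. So were the negative ones of Eras at -1.75, Sox1 at -1.65, Id2 at -0.92, Tfap2c at -0.86, Jag1 at -0.67, Scarb2 at -0.54, Rpl39l at -0.45, Prdm14 and Plagl1 at -0.43 each, Mycn at -0.37, Ctsb at -0.29, Il6st at -0.26, Zfp42 and Rrm2 at -0.19 each, Npc2 at -0.18 and Qars and Ldha at -0.16 each. Base medium and earlier medium changed together between these groups, so their parts cannot be told apart. Groups of 2 libraries were not searched for single outlying libraries.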

How the results depend on the processing

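The count of genes called at 12 h in 2i/LIF (6382) stayed within 1.5 times of its value in all settings tried except a required change beyond log2 1, which left 831; leaving out single libraries gave 5200 to 5451, DESeq2 gave 4979 and a replicate block 6409. For the difference between the media (1315), DESeq2 called 576, a required difference beyond log2 1 left 8, leaving out single libraries gave 931 to 1105 and a replicate block 1356. Replicate numbers came from the sample titles alone. Deviations of same-numbered libraries from their group means correlated at -0.0151 between 0 h and 12 h in 2i/LIF. With 2 libraries per group this cannot decide whether they were paired. No named gene reversed. Outside the minimum-fold setting, 18 of the 215 named genes called at 12 h lost their call in at least 1 setting, 8 other named genes gained one, and for the difference between the media 44 of 85 lost a call and 18 others gained one somewhere. Without ribosomal RNA genes in the table, 51.9% of 12 h calls were rises, against 47.0%. Depth limits genes near 0.401 to 0.517 CPM, the level of 3 counts, where fitted folds depend on the prior count.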

Other observations

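Replication-dependent histone transcripts, which mostly lack a polyA tail, were scarce in these libraries. Of 69 listed, 10 passed the filter and 0 were called at 12 h by edgeR, beside 44.7% of all genes tested. The highest of the 10, Hist1h2al, was at 4.53 CPM at 0 h and 4.13 CPM at 12 h. Ribosomal RNA genes took 0.613% and 1.05% of counts at 0 h and 0.764% and 0.644% at 12 h, and of 4 tested the mitochondrial mt-Rnr2 fell, by 0.48 on the log2 scale. Within oxidative phosphorylation, 2 tissue-specific subunit genes fell more than the list's median: Cox6b2, known from testis, was at 62.4 and 61.8 CPM at 0 h and 46.5 and 36.9 CPM at 12 h, and Cox7a1, known from muscle and heart, at 24.0 and 29.5 CPM at 0 h and 17.3 and 13.9 CPM at 12 h. Among ribosomal protein genes Rpl39l, a paralogue of Rpl39 expressed in the germline, was at 22.2 and 22.8 CPM at 0 h and 43.9 and 36.4 CPM at 12 h.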
